A study of Mus musculus with 6 samples.

Results

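The genes that write, erase and read methyl groups on DNA and histones were followed in hippocampal RNA of p300+/- mice, heterozygous for a deficiency of the histone acetyltransferase p300. A list of 41 genes was given, and every probe set annotated to exactly 1 of them was taken. This gave 117 probe sets for 40 genes, out of 45037 probe sets tested and 18193 genes with a single symbol. Suv39h1, an H3K9 methyltransferase, had no such probe set, and 1 probe set shared by Kdm6b and another gene was left out. The genes carry 1 to 9 probe sets each, and probe sets of a gene share its transcripts.

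The study compared 3 arrays of p300+/- animals with 3 of wild-type littermates. Each Affymetrix array held a pool of equal amounts of hippocampal RNA from 4 female mice of 3 months, so the 3 arrays of a genotype drew on 12 animals. Both genotypes were C57BL/6 animals from a C57BL/6J line, and the labels list no treatment. They tie the deficiency to no cell type or region. The pools of a genotype were labelled as independent biological replicates. Every deposited value is a log2 intensity relative to the median of that probe set over the 6 arrays. Differences between arrays are thus kept, and levels are not, apart from a coarse class described below. Such a class is no call of presence, so the presence of hippocampal marker transcripts was not checked. Fewer cells of a type and less RNA per cell cannot be told apart in such pools.

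DNA methyltransferases add methyl groups to cytosine, mostly in CpG. TET dioxygenases oxidize them, and methyl-CpG binding proteins read them. On histones, SET domain enzymes and Dot1l methylate lysines, and the lysine demethylases (Kdm) remove these marks again. In general H3K4 methylation marks promoters and enhancers, H3K36 and H3K79 methylation mark transcribed genes, and H3K9 and H3K27 methylation mark repressed chromatin. Several of these enzymes are needed for memory formation in mice, and p300 acetylates H3K27, the residue that Polycomb repressive complex 2 (PRC2) methylates.

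Ep300, the gene reduced in these animals, was read by 1 probe set. Its values were -0.26, -0.22 and -0.50 in p300+/- 1 to 3 and 0.22, 0.38 and 0.40 in wild-type 1 to 3, without overlap. The log2 fold change was -0.66 ± 0.13 (SE, n = 3 per genotype), short of the threshold (limma, adjusted p = 0.9999). The sources used here do not say which part of the gene the allele alters. Of the 6 arrays, p300+/- 3 and wild-type 2 had the widest spread of values over all probe sets (SD 0.29 and 0.33, against 0.18 to 0.21 in the others). Values without either or both are therefore given for results that this turned or shifted strongly, though not for every such case. In wild-type 2 the choroid plexus markers (10 of 12 genes measured) had a median of -2.32, against -0.084 to 0.27 in the other arrays. None of the methylation genes is in that marker list.

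Between genotypes, no transcript of the methylation enzymes passed the test, and differences were small. Of the 117 probe sets 0 passed an adjusted p of 0.05 (limma, two-sided, over all 45037 probe sets, background 0%). At an unadjusted p under 0.05 there were 2 (1.71%, background 1.22%), Mbd2 on the higher and Kmt2c on the lower side (backgrounds 0.770% and 0.451%). Log2 fold changes ran from -0.39 to 0.57, and the 95% intervals had a median reach on each side of 0.37. All p300+/- arrays lay on 1 side of all wild-type arrays in 4 probe sets (3.42%, background 5.39%), 2 higher (background 3.19%) and 2 lower (background 2.20%). Those of Mbd2, Kdm7a and Dnmt1 are of types that can bind several transcripts. Without such types 1 of 91 did not overlap (Kmt2c), against 5.32% of all probe sets. The median log2 fold change of the members was -0.028, against 0.0057 over all probe sets. Of the member values 46 were higher (39.3%, against 51.7% of all probe sets) and 71 lower. The member median was 0.026 without p300+/- 3 and 0.013 without wild-type 1, where 69 and 66 values were higher. Without both p300+/- 3 and wild-type 2 it was -0.032, with 52 higher, and 31 probe sets did not overlap (26.5%), against 28.3% of all probe sets in that comparison of 2 with 2 arrays.

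**Figure D1:**
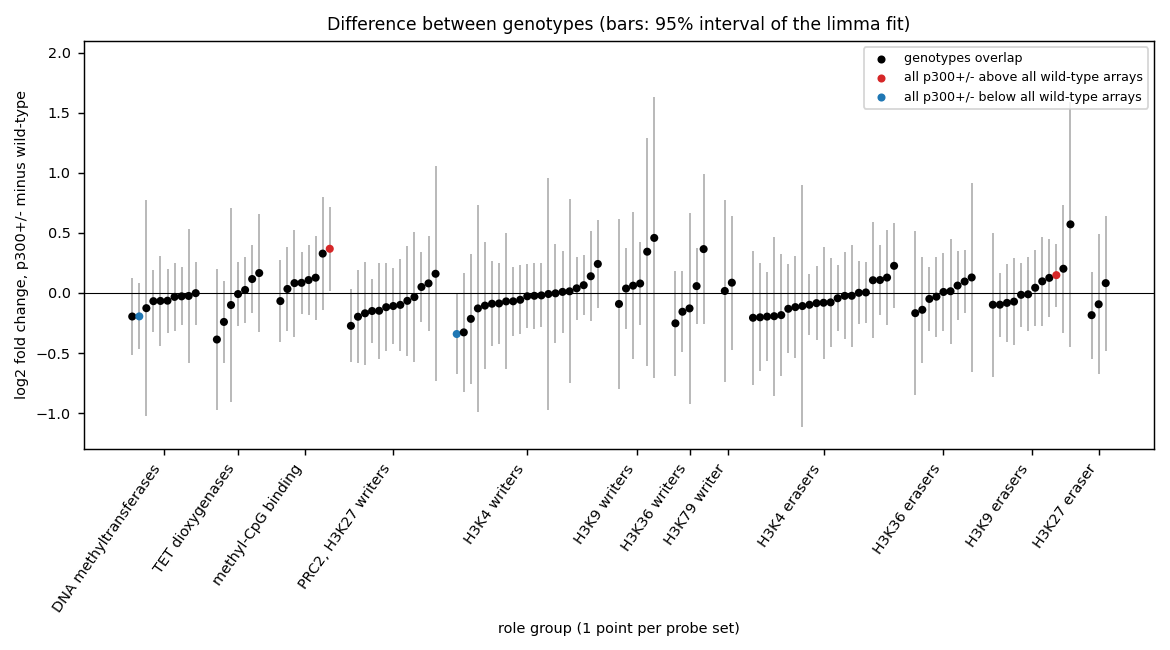
Log2 fold change (p300+/- minus wild-type) of each of the 117 probe sets on the y axis, ordered within role groups on the x axis, with the 95% interval of the limma fit as a bar. Points lie between -0.39 and 0.57, red and blue points are the 4 probe sets whose genotypes did not overlap, and the widest bars belong to probe sets that differ most between arrays of a genotype.

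Probe sets of a gene often went different ways. Among the 31 genes with 2 or more probe sets, all were higher in 6, all lower in 7, and both signs occurred in 18. With 1 mean per gene, 16 genes were higher and 24 lower.

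The DNA methyltransferases had lower values throughout, each by less than its error allowed to separate from 0. Dnmt1 copies methylation to the new strand after replication, while Dnmt3a and Dnmt3b set it anew, and all 10 of their probe sets lay below 0, from -0.20 to -0.0015 with a median of -0.065. With a single array left out, 6 to 10 of the 10 were lower, 6 without wild-type 1. Without both p300+/- 3 and wild-type 2 all 10 were lower. One probe set of Dnmt1, of a type that can bind several transcripts, did not overlap between genotypes. It was at -0.11, -0.0043 and -0.042 in p300+/- 1 to 3 and at 0.0043, 0.16 and 0.26 in wild-type 1 to 3. The p300+/- arrays lay just below the lowest wild-type array, and the log2 fold change was -0.19 ± 0.12 (SE; limma, adjusted p = 0.9999). The other Dnmt1 probe sets were at -0.033 and -0.0015. Dnmt3a, the main new-methylation enzyme of neurons, was read by 5 probe sets with log2 fold changes of -0.13 to -0.025. Its widest-ranging probe set was high in p300+/- 1 and wild-type 1 (0.57 and 0.79) and low in wild-type 2 (-0.65), so the arrays of a genotype differed by far more than the genotypes. Dnmt3b was at -0.20 and -0.064.

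The TET genes, which start the removal of DNA methylation, split into 3 higher and 4 lower probe sets, and into 5 higher and 2 lower without p300+/- 3 or without wild-type 1. Without wild-type 2, or without both it and p300+/- 3, 4 were higher and 3 lower. Tet1 held the lowest log2 fold change of the whole family, -0.39 ± 0.25 (SE), and it came from wild-type 1, which was at 0.87 while wild-type 2 and 3 were at 0.092 and -0.092 and p300+/- 1 to 3 at 0.13, -0.20 and -0.22. The smallest p of the group belonged to another Tet1 probe set. Its values were -0.27, 0.023 and -0.052 in p300+/- and -0.023, 0.36 and 0.092 in wild-type arrays. The genotypes overlapped there, at a log2 fold change of -0.24 ± 0.15, or -0.13 without wild-type 2. The remaining Tet1 probe sets were at 0.025 and 0.12. Tet2 was at -0.10 and 0.17, and Tet3 at -0.0090.

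Methyl-CpG binding genes leaned the other way, with 7 of 8 probe sets above 0 and a median log2 fold change of 0.096. Leaving out 1 array gave 5 to 8 of 8, with 5 without wild-type 2, and leaving out both p300+/- 3 and wild-type 2 gave 6. Mbd2, which recruits the NuRD repressor complex to methylated DNA, had the smallest p of the family (limma, adjusted p = 0.9999). This probe set was at 0.015, 0.28 and 0.48 in p300+/- 1 to 3 and at -0.083, -0.23 and -0.015 in wild-type 1 to 3. All p300+/- arrays lay above all wild-type arrays, p300+/- 1 by a narrow margin, and the log2 fold change was 0.37 ± 0.15 (SE), or 1.29-fold with a 95% interval of 1.01 to 1.64. The highest value was in p300+/- 3 and the lowest in wild-type 2, and without both the log2 fold change was 0.20. The other Mbd2 probe set was at 0.11 ± 0.12. Mbd1 ran from -0.067 to 0.33 in 5 probe sets, the highest with wild-type 1 at -0.56. Mbd3, the NuRD subunit that binds methylated DNA weakly, was at 0.082.

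PRC2 transcripts were lower in 10 of 13 probe sets, with a median of -0.11 that was -0.020 without both p300+/- 3 and wild-type 2. Suz12, the scaffold subunit without which the complex is unstable, was lower in 5 of 6 probe sets. Its smallest p (limma, adjusted p = 0.9999) belonged to a probe set at -0.26, 0.0020 and -0.32 in p300+/- and 0.067, 0.18 and -0.0020 in wild-type arrays. Only p300+/- 2 and wild-type 3 crossed, by a small step, and the log2 fold change was -0.27 ± 0.13 (SE), or -0.16 without both p300+/- 3 and wild-type 2. The catalytic subunit Ezh2, abundant in dividing cells, was at -0.099 ± 0.16. Ezh1, the catalytic subunit that prevails in cells that no longer divide, ran from -0.20 to 0.16 over 4 probe sets. Eed, which binds trimethylated H3K27 and stimulates the enzyme, was at -0.034 and 0.080.

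The H3K4 writers were lower in 15 of 21 probe sets, at a median of -0.028. A single array turned this: without wild-type 1, 14 of 21 were higher (median 0.015), and without p300+/- 3, 12 of 21 (median 0.017), while 14 of 21 were lower without both p300+/- 3 and wild-type 2. Kmt2c, an enhancer H3K4 methyltransferase, had 1 probe set with all p300+/- arrays below all wild-type arrays. The values were -0.086, -0.30 and -0.046 in p300+/- 1 to 3 and 0.41, 0.046 and 0.14 in wild-type 1 to 3. This gave a log2 fold change of -0.34 ± 0.14 (SE), or 0.789-fold with a 95% interval of 0.628 to 0.991 (limma, adjusted p = 0.9999). The other Kmt2c probe sets were at -0.33, -0.13 and 0.0090, with overlapping genotypes. Kmt2d, its closest relative, had the opposite sign at 0.14 and 0.24. Kmt2a, Kmt2b and Setd1a, which methylate H3K4 at promoters, lay between -0.090 and -0.0029, and Setd1b was at -0.024 and 0.014. Kmt2e, counted in this group by family name only, ran from -0.22 to 0.039, with 5 of its 6 probe sets lower. Setd7, an H3K4 monomethyltransferase with many other substrates, was at -0.020 and 0.065.

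Of the other writers, those of H3K9 were higher in 5 of 6 probe sets with a median log2 fold change of 0.070, but 1 of 6 were higher (median -0.11) without wild-type 2 and 3 of 6 without p300+/- 1. Without both p300+/- 3 and wild-type 2, 4 of 6 were higher. Ehmt1 and Ehmt2 form the G9a/GLP dimer that dimethylates H3K9. Ehmt1 was at -0.091 and Ehmt2 at 0.061 and 0.46, while Setdb1, which trimethylates H3K9, ran from 0.037 to 0.34. Nsd1, which dimethylates H3K36, had 1 probe set at 0.37 ± 0.27 (SE) and 3 others between -0.25 and -0.13. That probe set was at 0.28, 0.73 and -0.32 in p300+/- and 0.087, -0.40 and -0.087 in wild-type arrays, with p300+/- 1 and 2 above all wild-type arrays and p300+/- 3 below 2 of them. The log2 fold change was 0.11 without p300+/- 2, 0.23 without wild-type 2 and 0.64 without p300+/- 3. Over the 5 probe sets of the H3K36 writers, 3 were lower (median -0.13), and 3 were higher without p300+/- 3, wild-type 1 or wild-type 3. Setd2, which trimethylates H3K36, was at 0.057. Dot1l, the only known H3K79 methyltransferase, was at 0.086 and 0.017, both below 0 without p300+/- 1, without wild-type 2, or without both p300+/- 3 and wild-type 2, and the former spread from -0.33 to 0.48 within p300+/- and from -0.36 to 0.27 within wild-type arrays.

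Among demethylases, the H3K4 erasers were lower in 15 of 21 probe sets (median -0.081), the H3K36 erasers higher in 5 of 9 and the H3K9 erasers higher in 6 of 12. These splits moved with single arrays. The H3K4 erasers were higher in 11 of 21 without p300+/- 3 (median 0.014), and in 11 of 21 without both p300+/- 3 and wild-type 2 (median 0.015). The H3K36 erasers were higher in 2 of 9 without wild-type 2, in 7 of 9 without p300+/- 3 and in 3 of 9 without both. The H3K9 erasers were higher in 9 of 12 without p300+/- 3. Kdm5c, an X-linked H3K4 demethylase of neurons, was lower in 7 of its 9 probe sets, from -0.19 to 0.13. Kdm5a was lower in 5 of 6, and the exception had the smallest p of the group. This probe set was at 0.29, 0.17 and -0.098 in p300+/- and -0.19, -0.23 and 0.098 in wild-type arrays, where replicate 3 of each genotype crossed (0.23 ± 0.15, SE). Kdm5b was within -0.21 to 0.0044, and Kdm1a (LSD1), which removes mono- and dimethyl groups, was at -0.044 and 0.11. Kdm2a, a CpG island protein that demethylates H3K36, was within -0.049 to 0.13. The Kdm2a probe set with the smallest p lay at -0.036, 0.13 and 0.057 in p300+/- and 0.036, -0.065 and -0.10 in wild-type arrays (0.095 ± 0.11, SE). Kdm2b was at -0.17 and -0.14. Kdm7a, a demethylase of H3K9 and H3K27, had the highest log2 fold change of the family in 1 probe set (0.57 ± 0.44, SE), while in another all p300+/- arrays lay above all wild-type arrays. In the latter p300+/- 1 to 3 were at 0.0044, 0.051 and 0.0044 and wild-type 1 to 3 at -0.16, -0.22 and -0.0044, so the step between genotypes was very small. The remaining Kdm7a probe sets were at 0.044, -0.082 and -0.098, with overlapping genotypes. Kdm3a, Kdm3b, Kdm4a, Kdm4b and Kdm4c lay between -0.097 and 0.20. Kdm6b, which removes H3K27 methylation and is induced by neuronal and inflammatory signals, was at -0.18, -0.094 and 0.082, and 2 of the 3 were higher without p300+/- 2 or without wild-type 1. The first of these was at 0.097, -0.097 and -0.29 in p300+/- and 0.26, -0.13 and 0.13 in wild-type arrays, and its log2 fold change was -0.087 without p300+/- 3 and -0.29 without wild-type 2.

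**Figure D2:**
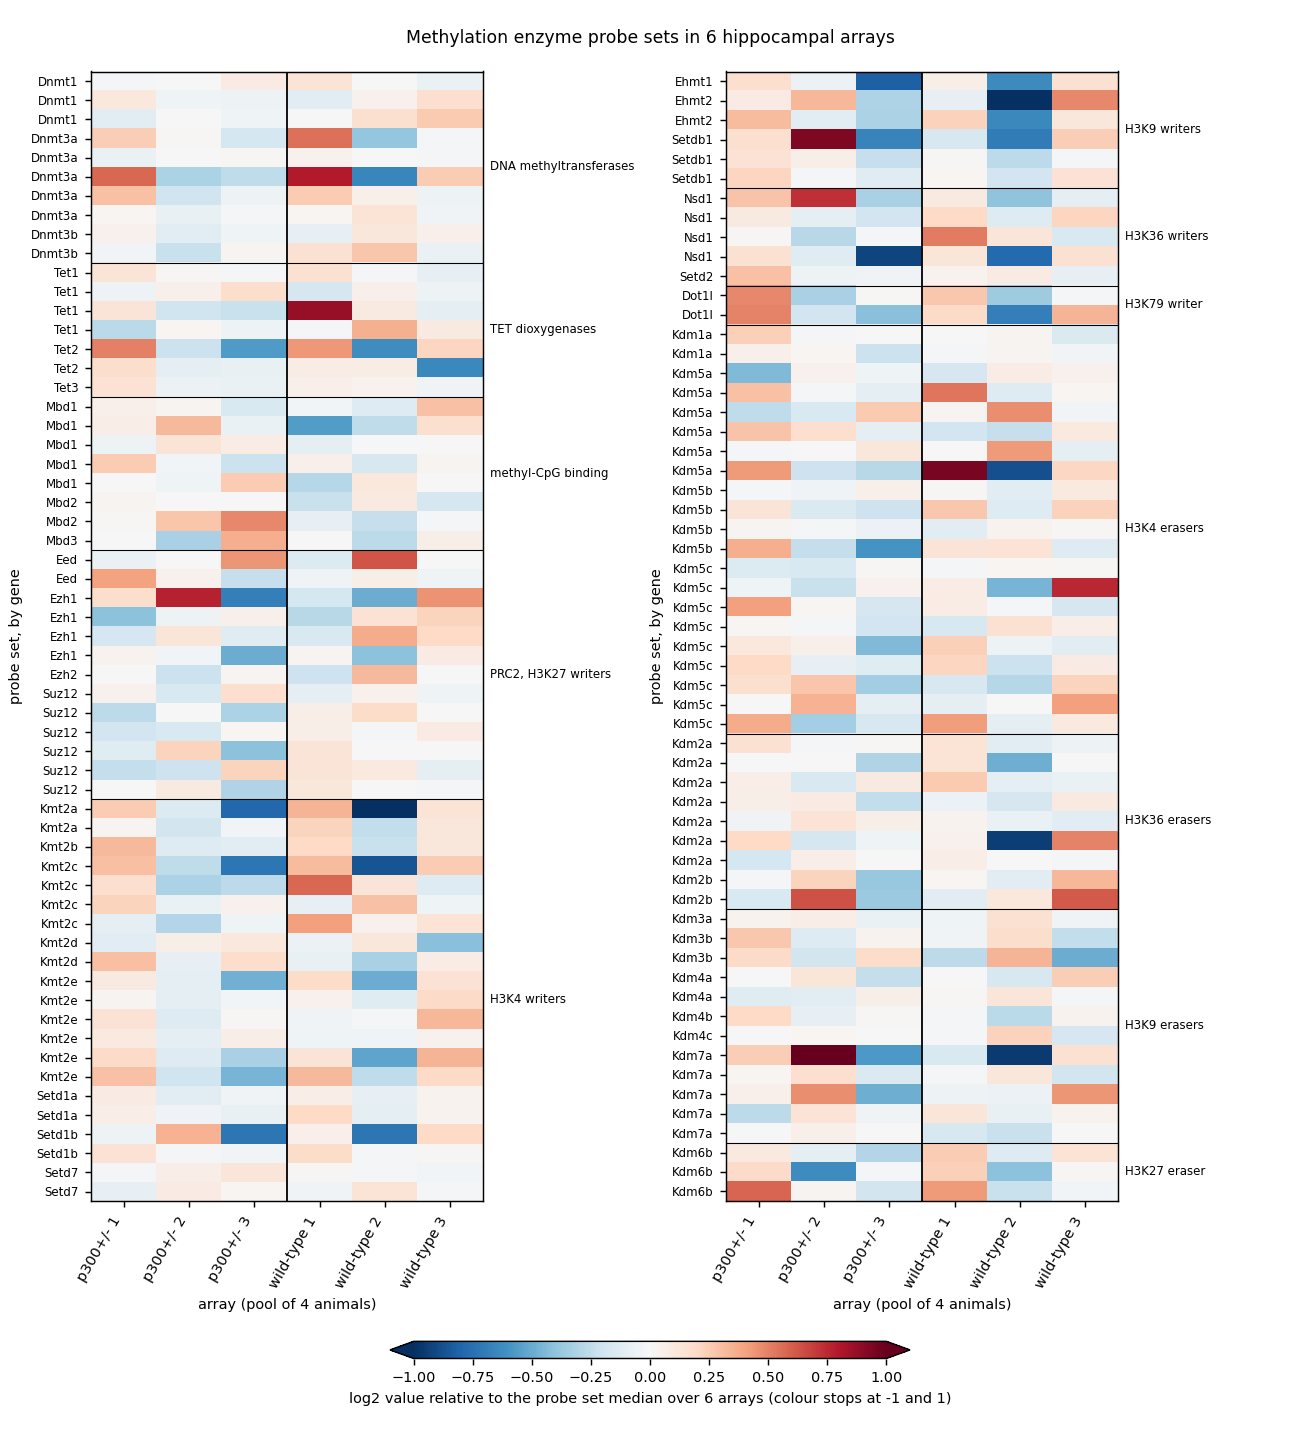
Value of each of the 117 probe sets (rows, named by gene and grouped by role) in each of the 6 arrays (columns, p300+/- left and wild-type right of the line), in log2 relative to the probe set's median, with colours ending at -1 and 1. The blue cells of p300+/- 3 and wild-type 2 recur in the same rows, among them all 6 rows of the H3K9 writers.

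The larger differences ran between arrays within each genotype. By their median, methylation enzyme transcripts were lowest in p300+/- 3 and wild-type 2, and highest in p300+/- 1 and wild-type 1. This pattern was seen in the values before it was counted, so the counts describe it and carry no test. In 36 of the 117 probe sets (30.8%), covering 21 genes, p300+/- 3 and wild-type 2 were the lowest pair, which held for 15.8% of all probe sets. The same pair was highest in 10 (8.55%, against 21.4% of all). Of the 21 genes, 4 (Kdm4a, Kdm5a, Kdm5c and Mbd1) also had a probe set in which this pair was highest. The pair p300+/- 1 and wild-type 1 was highest in 27 (23.1%, against 8.89% of all). Taken alone, wild-type 2 was extreme on both sides. It was the lowest array in 34 member probe sets (29.1%, against 18.4% of all) and the highest in 22 (18.8%, against 27.1% of all). Over the members the median value was 0.069, -0.030 and -0.063 in p300+/- 1 to 3 and 0.035, -0.054 and 0.026 in wild-type 1 to 3, where all probe sets had medians of -0.014 to 0.023. The correlation between p300+/- 3 and wild-type 2 was r = 0.58 over the 117 member probe sets and 0.55 over all, and that between p300+/- 1 and wild-type 1 was 0.43 and 0.45. These are correlations across probe sets, which are not independent, of values centred on the same 6 arrays.

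The share of such probe sets was higher among members than among all probe sets in both upper brightness classes. A coarse class of level could be read from the numerical grid of the values. In the class of log2 levels from 8 to 16, p300+/- 3 and wild-type 2 were the lowest pair in 17 of 48 member probe sets (35.4%) and in 22.1% of all. From 4 to 8 the numbers were 17 of 55 (30.9%) and 16.7%. Other genes of these pathways, 280 probe sets of 111 genes listed apart from the members, gave 19.3%.

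**Figure D3:**
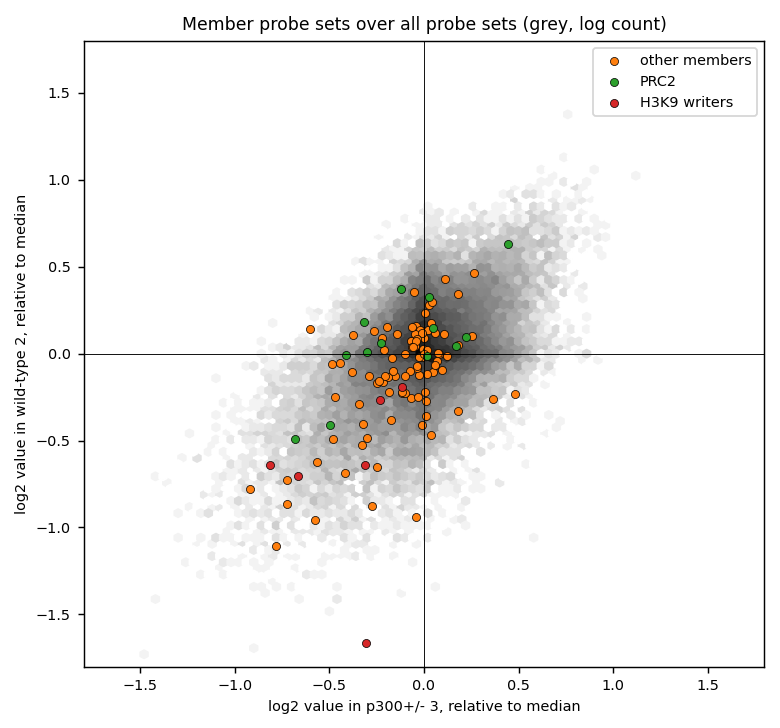
Value in wild-type 2 (y axis) against value in p300+/- 3 (x axis), both in log2 relative to the probe set's median, for the 117 member probe sets over the density of all probe sets in grey (log scale of counts; the most extreme grey probe sets lie outside the axes). The 6 H3K9 writer probe sets (red) lie below 0 in both arrays, while the PRC2 probe sets (green) spread to all sides.

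The members with the widest range showed it most plainly. A range over 1 log2 unit between arrays was found in 17 member probe sets (14.5%, against 9.49% of all), and in 12 of these 17 p300+/- 3 and wild-type 2 were the lowest pair, against 49.6% of all probe sets with such a range. Ehmt2 had the widest, with 0.084, 0.33 and -0.31 in p300+/- 1 to 3 and -0.084, -1.67 and 0.48 in wild-type 1 to 3. Wild-type 2 alone was far below the rest, and the log2 fold change of 0.46 ± 0.50 (SE) became -0.16 without it and 0.0087 without both it and p300+/- 3. Kmt2a was at 0.26, -0.13 and -0.78 in p300+/- and 0.34, -1.11 and 0.13 in wild-type arrays. Each genotype thus held 1 very low array, and the log2 fold change was -0.0086 ± 0.41, or 0.27 without p300+/- 3 and -0.46 without wild-type 2. The other Kmt2a probe set ranged less, from -0.25 in wild-type 2 to 0.22 in wild-type 1, with p300+/- 3 at -0.030.

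Some members were also high in p300+/- 2. The widest-ranging Kdm7a probe set was at 0.25, 1.08 and -0.57 in p300+/- and -0.15, -0.96 and 0.15 in wild-type arrays. That of Setdb1 was at 0.16, 0.93 and -0.67 in p300+/- and -0.16, -0.70 and 0.25 in wild-type arrays. For Ezh1 the values were 0.17, 0.77 and -0.68 in p300+/- and -0.17, -0.49 and 0.45 in wild-type arrays. In these 3 the highest array was p300+/- 2 and the lowest p300+/- 3 or wild-type 2, so p300+/- held an extreme on the high side and both genotypes held a low one. Without p300+/- 2 the log2 fold changes were 0.16 for Kdm7a, -0.052 for Setdb1 and -0.18 for Ezh1. Without wild-type 2 they were 0.25, 0.094 and -0.050, and without p300+/- 3 they were 0.98, 0.75 and 0.55. A Kdm5a probe set was highest in p300+/- 1 and wild-type 1, with p300+/- 3 and wild-type 2 again lowest. It was at 0.42, -0.20 and -0.27 in p300+/- and 0.95, -0.88 and 0.20 in wild-type arrays. Its log2 fold change was -0.11, or -0.59 without wild-type 2 and 0.020 without p300+/- 3. In 1 probe set each, Tet2 and Kmt2c were also high in the first pair and low in the second, Tet2 with 0.51 and 0.43 in p300+/- 1 and wild-type 1 against -0.56 and -0.62 in p300+/- 3 and wild-type 2, and Kmt2c with 0.30 and 0.31 against -0.72 and -0.86.

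The pattern was uneven over the roles. The pair p300+/- 3 and wild-type 2 was lowest in 15.8% of all probe sets. It was lowest in all 6 probe sets of the H3K9 writers (3 genes) and 3 of 5 of the H3K36 writers (Nsd1 only). The same held for 8 of 21 of the H3K4 writers (5 genes) and 2 of 3 of Kdm6b. This pair was lowest in 4 of 21 of the H3K4 erasers, 2 of 13 of PRC2 and 1 of 10 of the DNA methyltransferases. The H3K9 writers had a median of -0.31 in p300+/- 3 and -0.64 in wild-type 2, against 0.013 to 0.16 in the other arrays. One probe set of Eed ran the other way, with -0.064, 0.0071 and 0.44 in p300+/- and -0.13, 0.63 and -0.0071 in wild-type arrays, so the arrays in which the H3K9 writers were lowest held its highest values. The other Eed probe set did not share this: it was highest in p300+/- 1 (0.40), lowest in p300+/- 3 (-0.23) and at 0.059 in wild-type 2. Ezh2 was also highest in wild-type 2 (0.33) and next in p300+/- 3, though there only at 0.026, against 0.0053 in p300+/- 1.

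**Figure D4:**
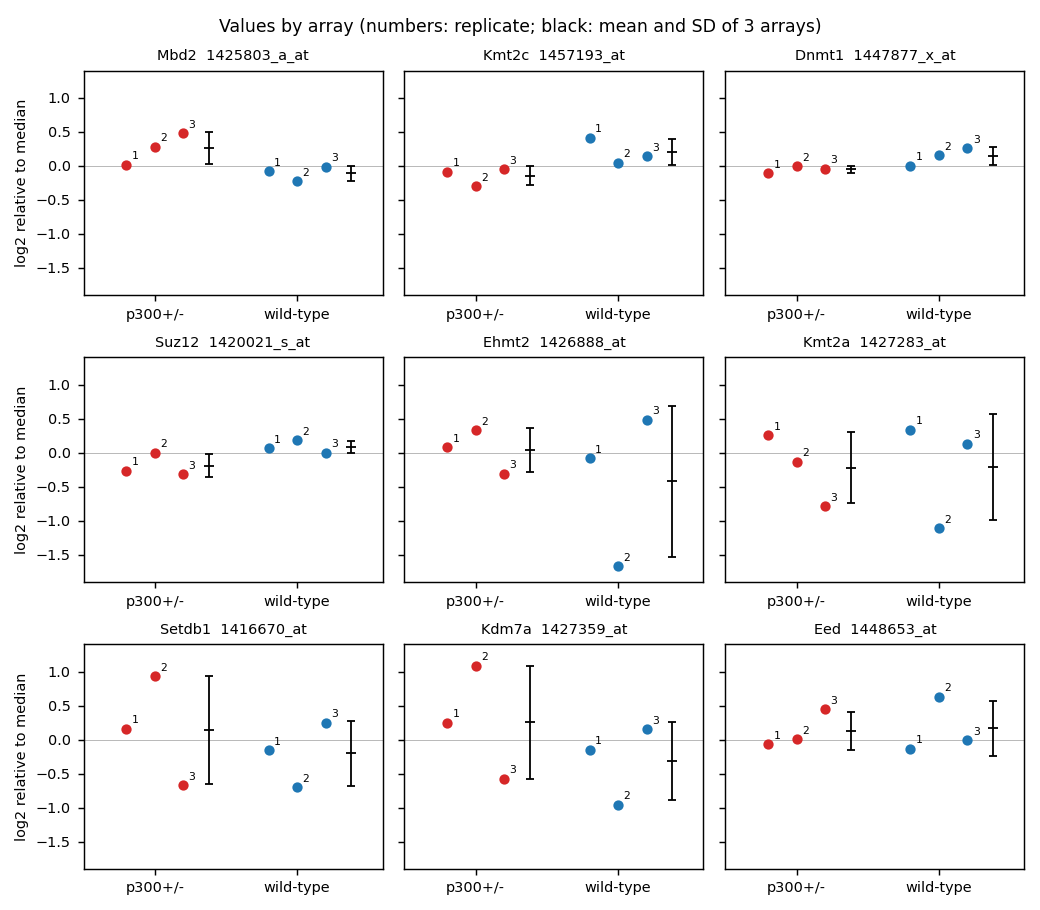
Values of 9 probe sets by array (points, numbered by replicate; log2 relative to the probe set's median on the y axis) with the mean and SD of 3 arrays per genotype in black. The genotypes are separated in Mbd2, Kmt2c and Dnmt1 by small steps, whereas Ehmt2, Kmt2a, Setdb1 and Kdm7a reach -0.70 or lower in at least 1 array and Eed is highest in p300+/- 3 and wild-type 2.

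The medians of some cell type markers also shifted in these arrays, while those of others did not. The neuronal and synaptic markers (11 of 12 genes measured, 27 probe sets) had medians of 0.073, 0.046 and -0.20 in p300+/- 1 to 3 and 0.026, -0.45 and 0.13 in wild-type 1 to 3. Like the median of the methylation enzymes, these were lowest in p300+/- 3 and wild-type 2. Microglia markers (9 of 10 genes) were at 0.35 in p300+/- 3 and 0.13 in wild-type 2, against -0.084 to 0.0074 in the others. Blood markers (6 of 7 genes) were at 0.73 in p300+/- 3 and 0.19 in wild-type 2, against -0.20 to 0.16. The median of the astrocyte markers lay between -0.019 and 0.031 in every array, although 6 of their 29 probe sets ranged over more than 1 log2 unit, and that of the oligodendrocyte markers lay between -0.13 and 0.061, lowest in wild-type 2. As medians, thalamic markers lay within -0.045 and 0.082, markers of dividing and precursor cells within -0.044 and 0.12, and vascular and meningeal markers within -0.17 and 0.070. The part of these shifts in the values of the methylation enzymes was not tested. Because levels are held only as a coarse class, no marker can be called absent.

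**Figure D5:**
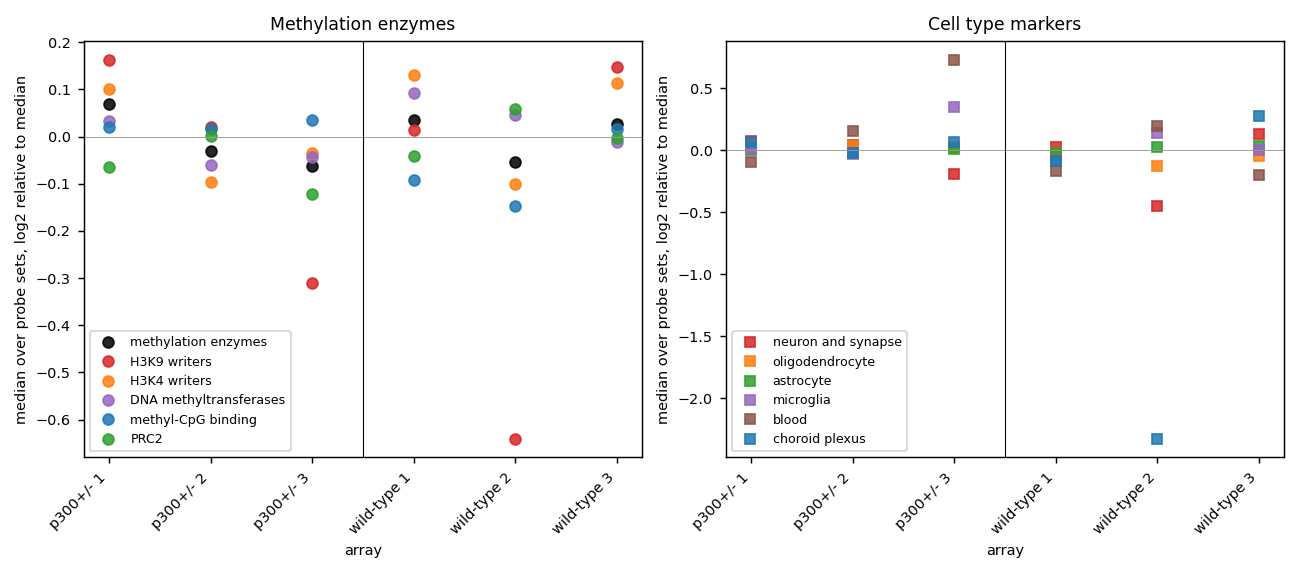
Median over probe sets (y axis, log2 relative to the probe set's median) in each array (x axis) for groups of methylation enzymes on the left and cell type markers on the right, on different scales. H3K9 writers drop to -0.31 and -0.64 in p300+/- 3 and wild-type 2, where neuron and synapse markers are also lowest, and choroid plexus markers drop to -2.32 in wild-type 2 alone.

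The pair p300+/- 3 and wild-type 2 was lowest for Ehmt2 and for 1 of 2 Kmt2a probe sets, and highest for 1 of 2 Eed probe sets. The promoters of these genes are shown as examples of their upstream sequence. Each is the 250 bases before the annotated start, from RefSeq (GRCm38.p6): Kmt2a at chr9:44881290-44881539, minus strand, Ehmt2 at chr17:34898224-34898473, plus strand, and Eed at chr7:89980977-89981226, minus strand. Capitals mark GC boxes, the letters GGGCGG on either strand, which Sp and KLF factors are known to bind.
Kmt2a: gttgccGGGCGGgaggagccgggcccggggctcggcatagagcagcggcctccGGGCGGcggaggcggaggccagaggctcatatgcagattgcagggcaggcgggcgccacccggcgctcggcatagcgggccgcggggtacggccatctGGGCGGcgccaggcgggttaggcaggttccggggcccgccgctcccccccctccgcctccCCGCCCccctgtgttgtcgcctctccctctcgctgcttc
Ehmt2: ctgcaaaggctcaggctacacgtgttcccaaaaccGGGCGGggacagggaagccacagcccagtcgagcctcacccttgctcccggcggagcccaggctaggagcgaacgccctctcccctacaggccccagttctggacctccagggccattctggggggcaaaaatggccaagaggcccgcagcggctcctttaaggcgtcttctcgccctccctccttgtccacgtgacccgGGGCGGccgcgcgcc
Eed: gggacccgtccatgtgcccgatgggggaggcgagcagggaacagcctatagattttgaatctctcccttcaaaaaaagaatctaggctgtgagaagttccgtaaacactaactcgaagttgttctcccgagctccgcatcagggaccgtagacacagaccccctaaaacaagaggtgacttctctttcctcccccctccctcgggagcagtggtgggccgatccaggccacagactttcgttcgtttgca
The Kmt2a window held 29 CpG and the Ehmt2 window 18, both with GC boxes, and the Eed window held 12 CpG and none. Over all members, windows with and without a GC box occurred on both sides: of the genes with a probe set lowest in that pair, 9 of 14 matched promoters held a GC box and Ezh1, Kdm2b, Kdm4a, Kdm5c and Setd1a did not, and of those with a probe set highest there, 3 of 7 did (Kmt2d, Suz12 and Tet1). Kdm4a and Kdm5c had probe sets of both kinds and are counted on both sides. Promoters were matched for 29 of the 40 genes. They held a median of 20 CpG, from 0 in Kdm4c to 56 in Kdm7a, where all 27025 genes of the table, of every kind, had a median of 6. A GC box was found in 18 of 29 (62.1%), against 32.9% of all promoters. The cAMP response element TGACGTCA, the site of CREB, a factor that recruits p300 and its relative CBP, was found in 0 of 29 and in 1.62% of all. Its shorter form TGACG, read on both strands and part of the full element, was found in 2 of 29, in Kdm5b and Suz12, against 17.9% of all. A match describes these letters only.

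The partners and relatives of these enzymes gave a similar picture between genotypes. Of 280 probe sets for 111 other genes in 8 lists, 148 were higher and 132 lower, 0 passed, 2 had an unadjusted p under 0.05 (0.714%, background 1.22%), 9 did not overlap (3.21%, background 5.39%), and the median log2 fold change was 0.0071 (limma). Among other histone methyltransferases, 33 of 62 probe sets were higher, with Prdm16 at 0.26 ± 0.12 (SE) and Setd5 at 0.22 ± 0.15 (0.12 without wild-type 2). Arginine methyltransferases were higher in 9 of 16, with Prmt1 at 0.23 (0.11 without wild-type 2, 0.030 without both p300+/- 3 and wild-type 2) and Prmt6 at 0.20. Other demethylases were lower in 20 of 34. Kdm4d, a relative of Kdm4a that also acts on H3K9, had the smallest p of these lists (limma, adjusted p = 0.9999). It was at -0.27, -0.069 and -0.069 in p300+/- and 0.069, 0.48 and 0.40 in wild-type arrays, without overlap, a log2 fold change of -0.45 ± 0.15 (SE). This Kdm4d probe set was dim, in the lowest level class (log2 levels from 2 to 4). Riox2, a ribosomal oxygenase of the JmjC family, was at -0.18.

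Other DNA methylation factors were higher in 17 of 30, with Zbtb38, a reader of methylated DNA, at -0.27 (-0.12 without wild-type 2) and the CXXC protein gene Cxxc4 at -0.35. The Cxxc4 probe set was also in the lowest level class (log2 levels from 2 to 4). Subunits of the H3K4 methyltransferase complexes were higher in 16 of 26, with the CpG-binding subunit Cxxc1 at 0.39 ± 0.21 (SE) and menin (Men1) at 0.31 ± 0.20. Both were lowest in wild-type 2, at -0.64, and without it Cxxc1 was at 0.20 and Men1 at 0.097. Polycomb partners, with Kdm2b counted here too, were higher in 31 and lower in 30 probe sets. Among them Rnf2, the ubiquitin ligase of Polycomb repressive complex 1, was at 0.012, 0.20 and 0.17 in p300+/- and -0.012, -0.32 and -0.21 in wild-type arrays, without overlap (0.31 ± 0.13, SE; limma, adjusted p = 0.9999), and the histone chaperone Rbbp4 was at 0.25 (0.12 without both p300+/- 3 and wild-type 2). The Rnf2 probe set is of a type that can bind several transcripts. Partners of LSD1 and NuRD were higher in 19 of 32, with Rcor3 at -0.40 (-0.20 without p300+/- 3) and Gatad2a at 0.26 (0.14 without wild-type 2). Readers and partners of H3K9 methylation were higher in 9 of 21, with Cbx3, a heterochromatin protein 1, at 0.23 ± 0.11 and Cdyl at -0.27 ± 0.19.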

How the data were processed

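Per the labels' protocols, hippocampal RNA was extracted from single animals with Trizol, cleaned on RNeasy columns, pooled and hybridized, and GeneSpring GX was used for processing and normalization; the sources used here do not give its version, probe summarization or method of normalization. The deposited log2 values are centred on each probe set's median (0 within 5e-07). The log base is not stated; 2 was taken from the binary grids of the values, which match single-precision log2 intensities and give a coarse level class for all but 6.39% of probe sets. After 64 control probe sets were left out, 45037 were tested with limma 3.58.1 (R 4.3.3; lmFit, eBayes, p300+/- minus wild-type, two-sided, Benjamini-Hochberg, threshold 0.05), tested on simulated data. Dim probe sets were kept in the main test, since centred values hold no level beyond this coarse class. An alternative kept only the classes of log2 levels from 4 to 8 and from 8 to 16. Symbols came from the platform annotation, updated by gene identifier to RefSeq (34741 of 34945 single-symbol probe sets matched).

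The members and lists were chosen with earlier results of these data known. Named were Ep300, members whose genotypes do not overlap, the smallest p of each other role group, the 6 widest ranges, and 2 genes per further list; Tet2, the second Kmt2a and Kmt2c probe sets, Eed, Ezh2 and the Dnmt3a and Tet1 extremes were added after their values were seen. Alternatives comprised other normalization, moderation, weights, a replicate block, filters and left-out arrays. An exact permutation test of 3 against 3 cannot go below 0.1. The number of arrays limits the precision. Figures were drawn with matplotlib 3.10.9.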

Additional observations from a re-analysis of the deposited data

How the results depend on the processing

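No probe set passed under any planned or added alternative, for the members or over the array (0 in each). The smallest adjusted p over the array was 0.0668 with trend and robust moderation (limma) and at least 0.974 otherwise. Unadjusted p-values under 0.05 numbered 366 to 1632 over all probe sets and 0 to 3 among members. The member median moved by less than the SD of list medians between arrays (0.060) in all settings: -0.047 with quantile normalization, -0.048 with array weights, -0.013 with the mean per gene, and -0.079 to 0.026 with single arrays left out. Member probe sets without overlap numbered 10 to 17 with an array left out, where 12.1% to 18.1% of all probe sets did not overlap, 31 without both p300+/- 3 and wild-type 2, and 1 of 91 without probe sets that can bind several transcripts, where 5.32% of all did not overlap. These comparisons involve fewer arrays or probe sets. Of 34 single probe sets followed, 28 kept their sign throughout. For the probe sets described, Dot1l was at -0.069 with array weights, at -0.054 without both arrays, and ran from -0.13 to 0.28 with single arrays left out; the cause was not tested. With single arrays left out, Ehmt2 ran from -0.16 to 0.91, Setdb1 from -0.052 to 0.75, Ezh1 from -0.18 to 0.55, Kmt2a from -0.46 to 0.27 and Kdm5a from -0.59 to 0.32.

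Replicate numbers did not pair the arrays throughout: deviations from the genotype means correlated at 0.61, -0.23 and -0.47 over all probe sets for numbers 1 to 3, while p300+/- 3 correlated best with wild-type 2 (0.65). Deviations within a genotype sum to 0, so these correlations depend on one another. They cannot tell whether arrays were processed in pairs. With the replicate number as a block, 0 probe sets passed and the member median was -0.028.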
